A study of Mus musculus with 24 samples.

Results

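Phosphofructokinase genes and genes of glucose and lactate handling were described across intestinal innate lymphoid cells of mice labelled as lacking the REV-ERB nuclear receptors in blood cells and of their littermates. The 10 genes were taken by their symbols from the 55487 genes of the count table. They are the phosphofructokinase genes Pfkp, Pfkl and Pfkm, the glucose transporter genes Slc2a1 and Slc2a3, the lactate carrier gene Slc16a3, and the enzyme genes Hk2, Aldoc, Eno1 and Ldha. Each symbol named 1 row, and all 10 passed the filter on low counts.

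The study sequenced bulk RNA of sorted cells from mouse small intestine (the lamina propria, beneath the epithelium), in 24 libraries. Mice labelled DKO carried Vav1-Cre, which is active throughout blood cells, together with floxed Nr1d1 and Nr1d2, the genes of REV-ERBα and REV-ERBβ. Control animals, labelled WT, were littermates with both genes floxed and no Cre named. All mice were 8 to 12 weeks old, and no treatment is given. In each genotype 4 populations were sorted, labelled ILC1, NKp46, CCR6 and DN, with 3 libraries per group. NKp46 and CCR6 are receptors that mark subsets of group 3 innate lymphoid cells (ILC3), and no source used here explains what DN stands for. The labels do not say which animal gave which library, so p-values measure the spread between libraries, which may be technical.

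Phosphofructokinase adds a phosphate to fructose 6-phosphate, the step that commits sugar to glycolysis, and its enzyme is built of subunits from the platelet-type, liver-type and muscle-type genes Pfkp, Pfkl and Pfkm. Glucose enters through facilitative carriers such as GLUT1 (Slc2a1) and GLUT3 (Slc2a3), is trapped by hexokinase (Hk2), and is split and oxidised to pyruvate by aldolase (Aldoc), enolase (Eno1) and others. Lactate dehydrogenase A (Ldha) turns pyruvate into lactate, and the monocarboxylate transporter MCT4 (Slc16a3) exports it. Lymphocytes raise this route on activation, and REV-ERBs repress metabolic genes as part of the circadian clock.

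In DKO cells transcripts of 2 of the phosphofructokinase genes and of the lactate exporter were higher, while those of the glucose transporter gene Slc2a3 were lower in some populations. Pfkl was higher in all 4 populations, and Pfkp and Slc16a3 were higher in NKp46, CCR6 and DN cells. Eno1 was higher, and Slc2a3 lower, in CCR6 and DN cells. For Pfkm, Slc2a1, Hk2, Aldoc and Ldha no genotype difference passed the test in any population. The promoters of Pfkp, Pfkl and Slc16a3 are shown because these 3 genes were higher together in NKp46, CCR6 and DN cells. They come from RefSeq on GRCm38.p6 and run from 250 bases before the gene's start to 50 bases after it, 5′ to 3′ on the gene's strand. Pfkp is read from chr13:6648722-6649021 (minus strand), Pfkl from chr10:78009758-78010057 (minus strand) and Slc16a3 from chr11:120948817-120949116 (plus strand). Capitals mark ACGTG and GCGTG on either strand, which are the forms of the core that hypoxia-inducible factors bind.
Pfkp: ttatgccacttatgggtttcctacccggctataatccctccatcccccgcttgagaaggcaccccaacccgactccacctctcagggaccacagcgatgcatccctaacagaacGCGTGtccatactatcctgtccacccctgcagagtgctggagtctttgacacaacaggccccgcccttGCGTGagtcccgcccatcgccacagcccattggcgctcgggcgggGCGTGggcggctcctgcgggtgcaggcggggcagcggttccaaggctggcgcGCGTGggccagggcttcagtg
Pfkl: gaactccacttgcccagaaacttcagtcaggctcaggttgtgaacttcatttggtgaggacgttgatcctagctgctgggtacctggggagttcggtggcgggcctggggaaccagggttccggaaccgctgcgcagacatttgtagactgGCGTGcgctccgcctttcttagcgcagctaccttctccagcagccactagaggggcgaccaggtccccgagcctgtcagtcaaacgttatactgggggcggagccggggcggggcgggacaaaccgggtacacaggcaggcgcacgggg
Slc16a3: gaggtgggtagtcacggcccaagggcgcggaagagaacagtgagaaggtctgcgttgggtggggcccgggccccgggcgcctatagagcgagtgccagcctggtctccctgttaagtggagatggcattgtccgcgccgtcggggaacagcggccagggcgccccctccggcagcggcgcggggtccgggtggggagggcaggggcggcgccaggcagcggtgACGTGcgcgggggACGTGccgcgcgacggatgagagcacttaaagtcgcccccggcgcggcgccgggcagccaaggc

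The motifs searched on both strands were AGGTCA, the half-site of REV-ERB and ROR receptors, CACGTG, the E-box of Myc and clock factors, ACGTG, which every CACGTG also holds, and GCGTG. The half-site AGGTCA was in 0 of these 3 windows and CACGTG in 0. The Slc16a3 window held ACGTG 2 times with no GCGTG, the Pfkp window held GCGTG 4 times with no ACGTG, and the Pfkl window held GCGTG 1 time with no ACGTG. Of 32851 RefSeq promoter windows of this length 16.3% held AGGTCA, 7.15% CACGTG, 19.6% ACGTG and 32.4% GCGTG. Of the 10 genes 9 had windows, 16 in all with some overlapping. AGGTCA was in 2 of the 16, CACGTG in 2, ACGTG in 7 and GCGTG in 12. Overlapping windows can count 1 site again. Counted by gene, AGGTCA was in 2 of the 9, CACGTG in 2, ACGTG in 6 and GCGTG in 7. G and C made up 64.7% of the Pfkp, 62.3% of the Pfkl and 73.3% of the Slc16a3 window. The RefSeq windows were not matched for this, and no excess of a motif was tested. These matches are letters in a window, and binding was not measured.

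Levels are CPM, that is counts per 1e+06 counts of the library, with library sizes scaled by the trimmed mean of M values (TMM). Each adjusted p is from edgeR's quasi-likelihood test across all 8 groups with Benjamini-Hochberg adjustment over 21286 genes, a gene is called under 0.05, and errors of log2 fold changes are standard errors. For levels between genes, CPM were divided by exon length to RPKM, CPM per kilobase of exon. That length covers all annotated exons of a gene and can exceed the length of its transcripts. In bulk samples fewer cells that express a gene and less RNA per cell cannot be told apart.

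Totals ran from 12.8 to 84.4 M counts (M, 1e+06) per library. The targeted genes Nr1d1 and Nr1d2 were not lower in libraries labelled DKO. Nr1d1 had 458 to 1772 CPM in DKO libraries, against 49.8 to 643 CPM in WT libraries, and the DKO libraries were above the WT libraries in each population. Which exons were deleted is not stated and counts per gene cannot show it. The genotype was therefore not checked by these levels, and every direction rests on the labels. Of the sorting markers Ncr1, which encodes NKp46, averaged 464 ± 78.7 CPM in DKO NKp46 and 824 ± 103 CPM in WT NKp46 cells, and Ccr6 averaged 766 ± 101 CPM in DKO CCR6 and 1399 ± 86.9 CPM in WT CCR6 cells (SD, n = 3 each). Ncr1 averaged more in ILC1 than in NKp46 cells, at 1423 ± 149 CPM in DKO ILC1 and 1614 ± 711 CPM in WT ILC1. Replicate 2 of WT ILC1 stood apart. It had 12.8 M counts, 84.1% of them in protein-coding genes and 9.39% in ribosomal RNA. In it 8 of the 10 genes were lower than in both other WT ILC1 libraries, and the share over all genes was not counted.

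Between DKO and WT libraries 1.06% of all genes were called for ILC1, 4.16% for NKp46, 3.97% for CCR6 and 2.83% for DN cells. Calls of a higher level in DKO made up 0.78%, 1.99%, 1.93% and 1.49% of all genes in that order. Of the 10 genes 1 was called higher in ILC1 and 3 in NKp46, and 4 each in CCR6 and DN. Calls of a lower level made up 0.277%, 2.17%, 2.04% and 1.34% of all genes in the order used above. Of the 10 genes 0 were called lower in ILC1 and NKp46, and 1 each in CCR6 and DN. The median log2 fold change of the 10 genes was 0.40 for ILC1, 0.13 for NKp46, 0.58 for CCR6 and 0.55 for DN, against 0.00, -0.02, -0.02 and -0.04 for all genes. The 10 genes were picked with earlier results of these data known.

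**Figure D1:**
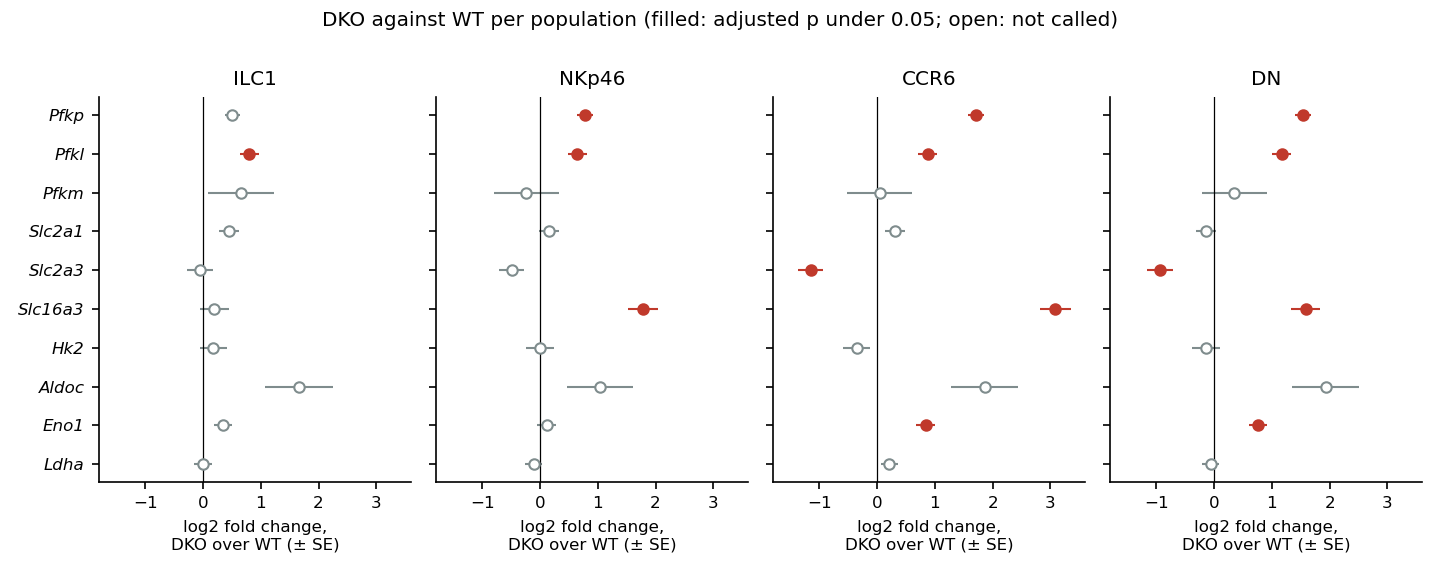
Log2 fold change of DKO over WT for the 10 genes (x axis, bars ± SE) in each of the 4 populations, from edgeR's fit of 24 libraries. Filled points are called, and Pfkp, Pfkl and Slc16a3 lie right of 0 in NKp46, CCR6 and DN, while Slc2a3 lies left of 0 in CCR6 and DN.

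Pfkp (ENSMUSG00000021196), the platelet-type subunit, lies on GRCm38 chromosome 13, 6579768 to 6648777, minus strand, with 24 exon blocks. In CCR6 cells it had 968, 885 and 942 CPM in DKO libraries, against 287, 284 and 281 CPM in WT libraries. In DN cells it had 973, 1040 and 892 CPM in DKO libraries, against 290, 340 and 370.0 CPM in WT libraries. Every DKO library was thus far above every WT library of its population. The log2 fold change was 1.71 ± 0.14 in CCR6 (3.28-fold, adjusted p = 4.65e-08) and 1.54 ± 0.14 in DN (2.90-fold, adjusted p = 2.66e-07).

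In NKp46 cells Pfkp had 626, 674 and 593 CPM in DKO libraries, against 360, 366 and 373 CPM in WT libraries. These groups did not overlap either, and the log2 fold change was 0.78 ± 0.14 (adjusted p = 0.00122). The smallest difference was in ILC1, with 324, 351 and 371 CPM in DKO libraries, against 262, 174 and 299 CPM in WT libraries. It was 0.51 ± 0.14 on the log2 scale and missed the threshold (adjusted p = 0.0870), although it passed with DESeq2 (adjusted p = 0.0212), with no filter on low counts (adjusted p = 0.0351), with library totals as the scale (adjusted p = 0.0426) and without WT ILC1 replicate 3 (adjusted p = 0.00995). Without WT ILC1 replicate 2 it was 0.32 (adjusted p = 0.206). Exons of Pfkp share 748 bases, 5.58% of their length, with Pitrm1 on the opposite strand.

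Pfkl (ENSMUSG00000020277), the liver-type subunit, lies on chromosome 10, 77986947 to 78010083, minus strand. It had 581, 538 and 536 CPM in DKO DN libraries, against 244, 227 and 265 CPM in WT DN libraries. In CCR6 cells the values were 601, 537 and 567 CPM in DKO libraries, against 314, 302 and 314 CPM in WT libraries. DKO and WT libraries did not overlap in these populations, and the log2 fold changes were 1.17 ± 0.17 in DN (adjusted p = 0.000102) and 0.87 ± 0.16 in CCR6 (adjusted p = 0.00176).

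Smaller differences of Pfkl were called in NKp46 and ILC1 cells. In NKp46 it had 421, 429 and 386 CPM in DKO libraries, against 300.3, 272 and 217 CPM in WT libraries, a log2 fold change of 0.65 ± 0.16 (adjusted p = 0.0249). In ILC1 it had 235, 242 and 251 CPM in DKO libraries, against 164, 87.6 and 167 CPM in WT libraries, a log2 fold change of 0.80 ± 0.16 (adjusted p = 0.0135). DKO libraries were above WT libraries in both. The call in NKp46 was lost without DKO replicate 1 (adjusted p = 0.101) or 2 (0.148) or WT replicate 2 (0.0774) or 3 (0.177), and that in ILC1 without DKO replicate 2 (0.0638) or 3 (0.0634) or when only the 2 ILC1 groups entered the fit (0.743). Without WT ILC1 replicate 2, the low one, the remaining WT ILC1 libraries averaged 166 CPM and Pfkl stayed called (0.555, adjusted p = 0.0112).

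Pfkm (ENSMUSG00000033065), the muscle-type subunit, lies on chromosome 15, 98092589 to 98132451, plus strand, and was the least abundant of the 3. In CCR6 cells it had 30.4, 23.3 and 23.4 CPM in DKO libraries, against 26.7, 23.8 and 24.03 CPM in WT libraries, and the groups overlapped. In NKp46 cells it had 19.3, 18.7 and 19.4 CPM in DKO libraries, against 23.03, 23.8 and 20.9 CPM in WT libraries. There every DKO library was below every WT library, as 11.7% of all genes were, and the difference was not called (-0.24 ± 0.57, adjusted p = 0.904). In DN it had 24.3, 19.7 and 26.0 CPM in DKO libraries, against 13.3, 19.6 and 22.0 CPM in WT libraries.

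In ILC1 Pfkm had 14.3, 16.8 and 17.6 CPM in DKO libraries, against 18.4, 0.161 and 11.8 CPM in WT libraries. The value of 0.161 CPM is 2 counts in WT ILC1 replicate 2, the library that stood apart, and the fit shares its spread among all groups. The adjusted p of Pfkm for DKO against WT was 0.663 or more in each population. Exons of Pfkm share 341 bases with Gm26513 on the same strand, 10.2% of their length, so their reads could not be told apart by strand.

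**Figure D2:**
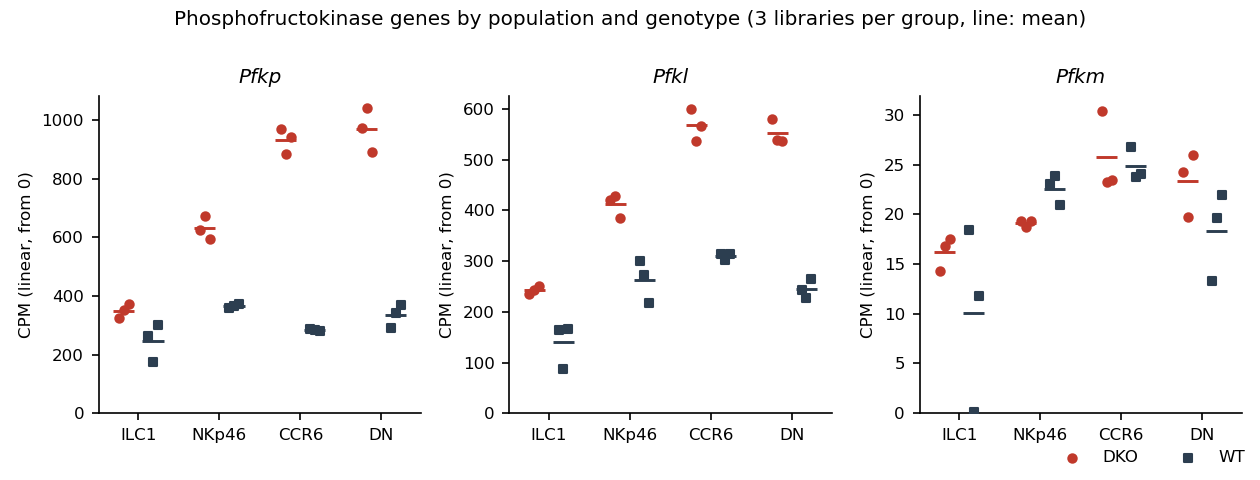
CPM of Pfkp, Pfkl and Pfkm (y axis, linear) by population, with DKO libraries as circles left of WT libraries as squares, and lines at the mean of 3 libraries. Pfkp and Pfkl of DKO cells lie above WT cells in all 4 populations, with Pfkp averaging 932 CPM in DKO CCR6 and 968 CPM in DKO DN, and Pfkm groups lie close together apart from 1 WT ILC1 library near 0.

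The makeup of the phosphofructokinase transcripts was compared per length, as the share of each gene in the summed RPKM of the 3. By this measure Pfkl had the largest mean share in each of the 8 groups, from 49.6% in WT ILC1 to 61.9% in WT CCR6. The length was every annotated exon base of a gene, 13401 for Pfkp, 6675 for Pfkl and 3340 for Pfkm. In CPM Pfkp was above Pfkl in each group but WT CCR6, so the rank of Pfkl depends on the length used. In CCR6 cells the share of Pfkp was 42.8% ± 0.606 in DKO libraries and 28.2% ± 0.526 in WT libraries (SD, n = 3 each), and the share of Pfkl was 52.4% ± 0.0870 in DKO libraries and 61.9% ± 0.608 in WT libraries. Shares of Pfkp ranged from 42.2% to 43.3% in DKO CCR6 libraries and from 27.9% to 28.8% in WT CCR6 libraries, so the mixture differed by more than the spread between libraries. In DN cells the share of Pfkp was also higher, at 44.6% ± 2.32 in DKO libraries and 37.0% ± 2.06 in WT libraries. In NKp46 cells the Pfkp shares overlapped, at 40.4% to 41.9% in DKO libraries and 34.1% to 41.8% in WT libraries.

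Pfkm took 4.73% ± 0.520 in DKO CCR6 and 9.91% ± 0.488 in WT CCR6 libraries. Its share was likewise lower in NKp46, at 5.02% ± 0.355 in DKO and 9.21% ± 0.393 in WT libraries, and in DN, at 4.33% ± 0.716 in DKO and 8.11% ± 1.47 in WT libraries, with no overlap in either. A share of Pfkm falls whenever Pfkp and Pfkl rise in the same sum, and Pfkm itself was not called by genotype in any population. In ILC1 the share of Pfkp was 38.7% ± 0.659 in DKO and 44.3% ± 5.14 in WT libraries, and replicate 2 of WT had the highest of the WT shares. With 3 libraries a group no exact test of a share can reach the threshold, and none was made.

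**Figure D3:**
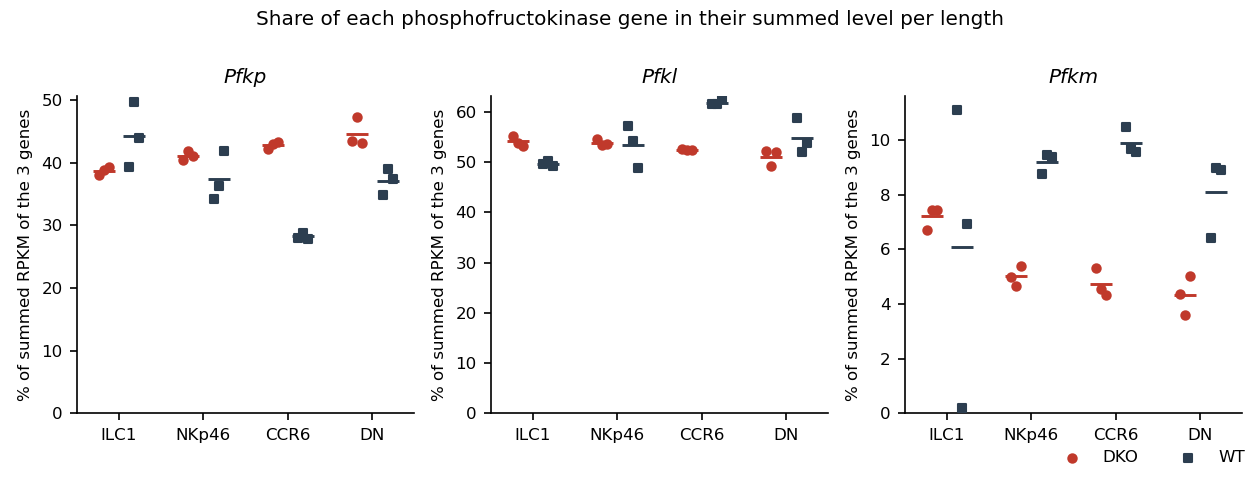
Share of Pfkp, Pfkl and Pfkm in their summed RPKM (y axis, percent) by population, with DKO libraries as circles left of WT libraries as squares, and lines at the mean of 3 libraries. The Pfkp share of CCR6 cells is 42.2% to 43.3% in DKO against 27.9% to 28.8% in WT libraries.

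Neither glucose transporter gene was called higher in DKO cells. Slc2a3 (ENSMUSG00000003153), which encodes GLUT3, lies on chromosome 6, 122727809 to 122801640, minus strand. In CCR6 cells, where 13.3% of all genes had every DKO library below every WT library, it had 21.9, 26.2 and 28.1 CPM in DKO libraries, against 56.4, 56.2 and 56.7 CPM in WT libraries. In DN cells, where 12.8% did, it had 51.2, 46.7 and 36.2 CPM in DKO libraries, against 86.1, 89.6 and 81.4 CPM in WT libraries. All DKO libraries were lower than all WT libraries in both. Slc2a3 fell by 1.15 ± 0.22 on the log2 scale in CCR6 (adjusted p = 0.00212) and by 0.94 ± 0.22 in DN (adjusted p = 0.0159). The call in DN was lost without DKO replicate 2 (adjusted p = 0.0753) or 3 (0.150) or WT replicate 1 (0.0608), 2 (0.0800) or 3 (0.0528).

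In NKp46 cells Slc2a3 had 67.9, 53.5 and 43.5 CPM in DKO libraries, against 80.8, 74.3 and 76.5 CPM in WT libraries. DKO was below WT without overlap, as for 11.7% of all genes, yet the difference of -0.49 ± 0.22 was not called (adjusted p = 0.263). ILC1 held the most Slc2a3, with 154, 184 and 136 CPM in DKO libraries, against 177, 93.1 and 220.1 CPM in WT libraries, and these groups overlapped, while 4.26% of all genes lay lower in every DKO library there. Slc2a1 (ENSMUSG00000028645), which encodes GLUT1, lies on chromosome 4, 119108711 to 119137983. Its means were between 43.0 and 57.4 CPM in DKO groups and between 34.5 and 53.7 CPM in WT groups. No difference by genotype was called, with log2 fold changes from -0.14 in DN to 0.45 in ILC1 and adjusted p of 0.265 or more.

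Slc16a3 (ENSMUSG00000025161), the gene of the lactate exporter MCT4, lies on chromosome 11, 120948480 to 120960868, plus strand. In CCR6 cells it had 28.5, 24.4 and 21.6 CPM in DKO libraries, against 2.55, 2.76 and 3.44 CPM in WT libraries. The log2 fold change was 3.09 ± 0.27 (8.51-fold, adjusted p = 1.25e-07), the widest difference among the 10 genes in any population. It rested on at least 134 counts in each library. In NKp46 cells Slc16a3 had 26.2, 24.4 and 28.2 CPM in DKO libraries, against 8.09, 7.81 and 6.89 CPM in WT libraries. In DN cells the values were 27.6, 34.1 and 28.6 CPM in DKO libraries, against 11.8, 9.98 and 8.38 CPM in WT libraries. No DKO library overlapped a WT library in these populations, and the log2 fold changes were 1.79 ± 0.26 in NKp46 (adjusted p = 0.000144) and 1.58 ± 0.26 in DN (adjusted p = 0.000554).

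No difference was called in ILC1. There Slc16a3 had 19.1, 16.3 and 16.2 CPM in DKO libraries, against 12.6, 23.5 and 9.32 CPM in WT libraries, and the groups overlapped (0.19 ± 0.25, adjusted p = 0.790). The value of 23.5 CPM belonged to replicate 2 of WT ILC1, and the remaining WT ILC1 libraries averaged 11.0 CPM. Without that library the log2 difference in ILC1 was 0.65 and still not called.

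The other enzyme genes went different ways. Eno1 (ENSMUSG00000063524), on chromosome 4, 150236721 to 150248879, encodes the enolase that makes phosphoenolpyruvate. In CCR6 cells it had 2262, 1750 and 1784 CPM in DKO libraries, against 1189, 1084 and 962 CPM in WT libraries. In DN cells it had 2060, 2097 and 2005 CPM in DKO libraries, against 1272, 1092 and 1277 CPM in WT libraries. All DKO libraries were above all WT libraries, by log2 fold changes of 0.84 ± 0.16 (adjusted p = 0.00217) in CCR6 and 0.76 ± 0.16 (adjusted p = 0.00755) in DN. The call in DN was lost without WT DN replicate 2 (adjusted p = 0.0789).
In ILC1 and NKp46 Eno1 did not pass the test, with 0.35 ± 0.16 (adjusted p = 0.349) and 0.11 ± 0.16 (adjusted p = 0.816). Without WT ILC1 replicate 2 the ILC1 value of Eno1 was 0.14, and those of Slc2a1 and Pfkm were 0.27 and 0.11, none called. Copies of Eno1 can share its reads: Eno1b holds 25.3% and the pseudogene Gm4735 19.0% of its stretches of 50 bases. In CCR6 cells Eno1b averaged 62.3 CPM in DKO and 30.4 CPM in WT libraries, and Gm4735 22.5 CPM in DKO and 12.1 CPM in WT libraries, both called. How reads shared among copies were counted is not given in the sources used here.

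Aldoc (ENSMUSG00000017390), on chromosome 11, 78322968 to 78327781, encodes aldolase C and had standard errors as wide as those of Pfkm. In CCR6 cells it had 13.2, 13.7 and 21.7 CPM in DKO libraries, against 0.912, 4.57 and 7.85 CPM in WT libraries. In DN cells it had 10.1, 25.2 and 23.1 CPM in DKO libraries, against 6.14, 5.69 and 3.48 CPM in WT libraries. These groups did not overlap, and the DKO DN libraries spread more than the WT DN libraries. In ILC1 it had 10.1, 8.31 and 10.3 CPM in DKO libraries, against 3.35, 0.643 and 4.83 CPM in WT libraries. In NKp46 it had 9.73, 17.2 and 15.98 CPM in DKO libraries, against 5.02, 8.44 and 7.31 CPM in WT libraries. DKO libraries were above WT libraries without overlap in all 4 populations, as were 6.53% of all genes for ILC1, 9.76% for NKp46, 11.5% for CCR6 and 11.2% for DN. None of the differences was called by edgeR, with log2 fold changes of 1.86 ± 0.58 in CCR6 (adjusted p = 0.0854), 1.93 ± 0.58 in DN (0.0894), 1.66 ± 0.59 in ILC1 (0.220) and 1.04 ± 0.57 in NKp46 (0.387).
The differences of Aldoc in CCR6 and DN were called with DESeq2 (adjusted p = 0.0164 and 0.0117), with limma voom (0.00799 and 0.0326) and without WT ILC1 replicate 2 (0.0256 and 0.0257), in which Aldoc had 8 counts. That in CCR6 was also called without WT CCR6 replicate 3 (adjusted p = 0.0367), and that in DN with only the 2 DN groups in the fit (0.0159).

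Hk2 (ENSMUSG00000000628), on chromosome 6, 82725025 to 82774454, encodes the hexokinase bound to mitochondria. It differed between ILC1 and the other populations, with no call by genotype. In NKp46 cells it averaged 78.6 ± 2.01 CPM in DKO and 78.5 ± 13.5 CPM in WT libraries, and in ILC1 31.3 ± 1.20 CPM in DKO and 27.6 ± 6.68 CPM in WT libraries (SD, n = 3 each). Ldha (ENSMUSG00000063229), on chromosome 7, 46841475 to 46855627, varied least, with group means from 649 to 769 CPM in DKO and from 584 to 803 CPM in WT cells. Its log2 fold changes by genotype lay between -0.11 and 0.21, with standard errors of 0.15. Those of Hk2 lay between -0.36 and 0.18, with standard errors of 0.24, and the adjusted p was 0.638 or more for both genes.

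**Figure D4:**
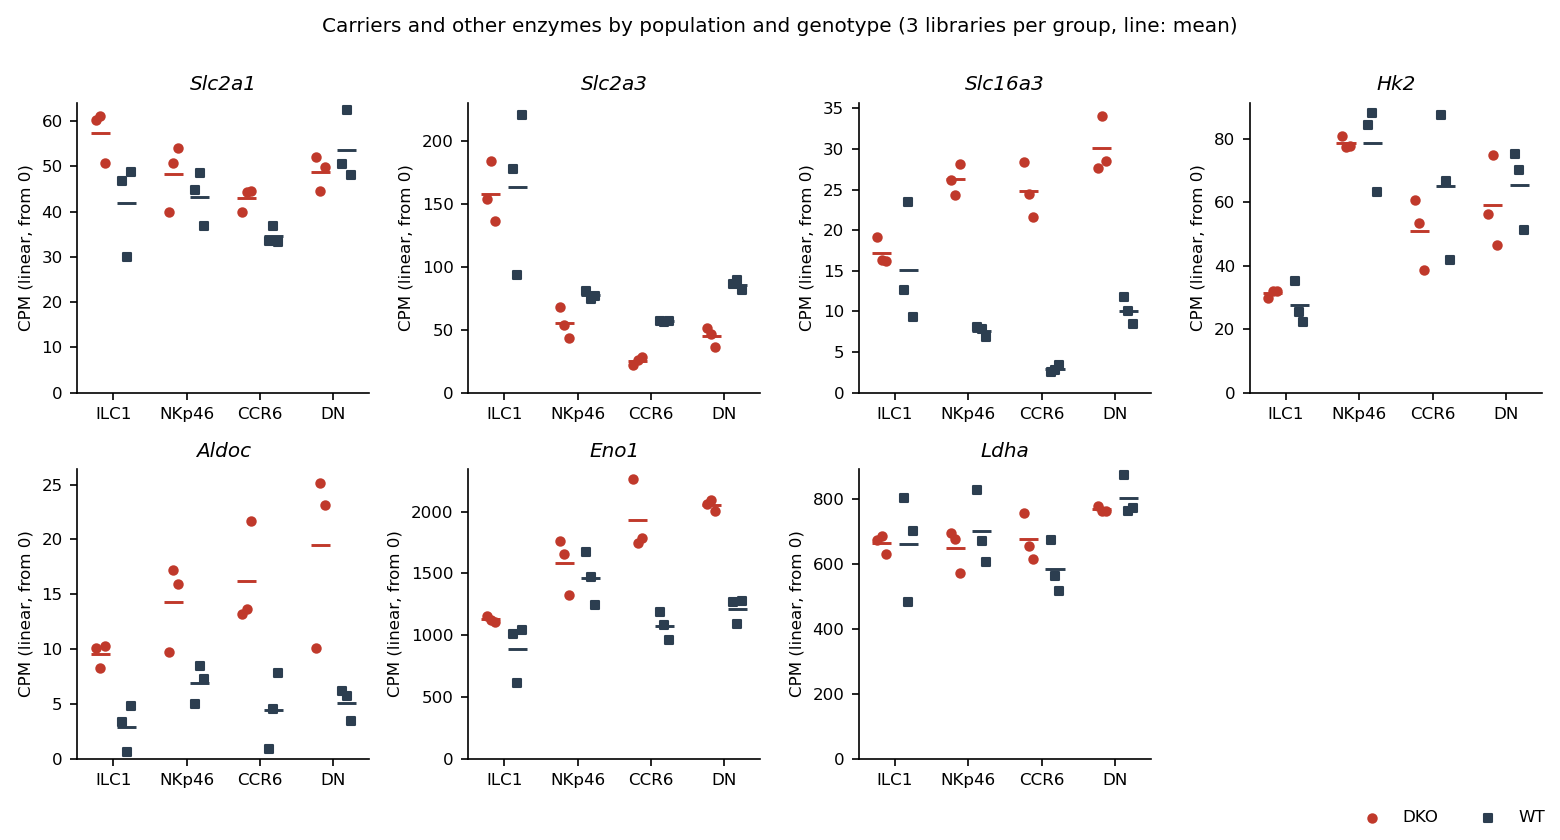
CPM of Slc2a1, Slc2a3, Slc16a3, Hk2, Aldoc, Eno1 and Ldha (y axis, linear) by population, with DKO libraries as circles left of WT libraries as squares, and lines at the mean of 3 libraries. Slc16a3 of DKO cells lies at 21.6 CPM or more in NKp46, CCR6 and DN against 11.8 CPM or less in WT, and the Ldha groups overlap in all 4 populations.

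Whether the effect of the DKO label differed among the 4 populations was tested across genes, and 1.37% of all genes were called. Of the 10 genes 2 were called, Slc16a3 (adjusted p = 0.000723) and Pfkp (adjusted p = 0.00193). Between pairs of populations 0.559% of all genes were called for ILC1 minus NKp46, 0.423% for CCR6 minus NKp46, 0.498% for DN minus NKp46, 1.17% for ILC1 minus CCR6, 0.343% for ILC1 minus DN and 0.127% for CCR6 minus DN. The log2 effect on Pfkp in ILC1 minus that in CCR6 was -1.21 ± 0.20 (adjusted p = 0.00180), and minus that in DN it was -1.03 ± 0.19 (adjusted p = 0.0173). In CCR6 minus in NKp46 it was 0.93 ± 0.19 (adjusted p = 0.0292), so CCR6 exceeded both ILC1 and NKp46.
For Slc16a3 the effect in ILC1 minus that in CCR6 was -2.89 ± 0.36 (adjusted p = 8.01e-05) and minus that in NKp46 -1.60 ± 0.36 (adjusted p = 0.0450). With WT ILC1 replicate 2 left out, the effect on Slc16a3 was 0.65 in ILC1 and 1.78 in NKp46. Pairwise differences were not refitted with a library left out. In the test across the 4 populations the results were as follows. No difference was called for Pfkl (adjusted p = 0.632), Eno1 (0.230) or Slc2a3 (0.198), so calls of these genes in some populations and not in others do not show that the populations differed. Eno1 was called without WT ILC1 replicate 2 (adjusted p = 0.0212) and with no filter on low counts (0.046). Slc2a3 was called with no filter (adjusted p = 0.018), with DESeq2 (0.047) and without WT ILC1 replicate 3 (0.0436). Pfkp and Slc16a3 stayed called in this test without any single library.

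Per annotated exon length, Eno1 and Ldha had the highest levels, with group means of 165 to 382 RPKM for Eno1 and 176 to 243 RPKM for Ldha. Pfkl had 20.9 to 85.1 RPKM, Pfkp 18.3 to 72.3 RPKM and Pfkm 3.03 to 7.70 RPKM. The order between genes depends on this length: in CPM Pfkp was above Pfkl in each group but WT CCR6. In DKO DN Pfkp was also above Ldha, at 968 against 769 CPM. The lactate exporter gene Slc16a3 had 5.66 RPKM in DKO DN, its highest group mean, and 0.548 RPKM in WT CCR6, its lowest. Across the 8 groups the order of the levels put DKO CCR6 and DN cells at the top for both Pfkp and Pfkl. DKO DN and DKO CCR6 overlapped for Pfkp, at 968 ± 73.8 and 932 ± 42.6 CPM, and lay above DKO NKp46 at 631 ± 40.5 CPM (SD, n = 3 each). Below these the libraries of DKO ILC1, at 349 ± 23.7 CPM, overlapped with those of WT NKp46, at 366 ± 6.30 CPM, and WT DN, at 333 ± 40.6 CPM. WT CCR6, at 284 ± 2.96 CPM, and WT ILC1, at 245 ± 64.5 CPM, were lowest and overlapped. Pfkl of DKO ILC1, at 243 ± 7.86 CPM, lay within the range of WT DN, at 245 ± 18.9 CPM. For Slc16a3 the order was DKO DN, DKO NKp46 and DKO CCR6, which overlapped, then DKO ILC1, WT ILC1, WT DN, WT NKp46 and WT CCR6. Between the highest and the lowest group mean the ratio was 10.3 for Slc16a3, 6.43 for Slc2a3 and 6.62 for Aldoc, against 1.38 for Ldha and 1.66 for Slc2a1.

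Without the deletion the populations already differed, and ILC1 stood apart from the others. Called genes between WT ILC1 and WT NKp46 were 10.7% of all genes, 5.13% higher and 5.6% lower in ILC1. Of the 10 genes 6 were called: Slc2a3 (1.08 ± 0.22, adjusted p = 0.00212) and Slc16a3 (0.98 ± 0.26, adjusted p = 0.0144) were higher in WT ILC1, and Hk2 (-1.51 ± 0.25, adjusted p = 0.000237), Pfkl (-0.91 ± 0.16, adjusted p = 0.000684), Eno1 (-0.72 ± 0.16, adjusted p = 0.00493) and Pfkp (-0.58 ± 0.14, adjusted p = 0.00768) were lower. The call of Slc16a3 was lost without WT ILC1 replicate 2 (0.54, adjusted p = 0.117), with limma voom (adjusted p = 0.131), without WT NKp46 replicate 2 (0.0502) or 3 (0.0674) and with no filter on low counts (0.0538). Without WT ILC1 replicate 2 Pfkp was -0.38 (adjusted p = 0.0266), Eno1 -0.51 (0.0220) and Pfkl -0.66 (0.000426). With only these 2 groups in the fit, 1 of the 10 genes was called, and calls over all genes fell to 487 of 16021, against 2285 of 21286.

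Against WT CCR6, where 19.3% of all genes were called, 9.33% higher and 9.99% lower, WT ILC1 were higher in Slc16a3 (2.36 ± 0.27, adjusted p = 8.14e-07) and Slc2a3 (1.54 ± 0.22, adjusted p = 2.39e-05) and lower in Pfkl (-1.15 ± 0.17, adjusted p = 2.25e-05) and Hk2 (-1.24 ± 0.24, adjusted p = 0.000793). Against WT DN, where 7.61% were called, 2.88% higher and 4.73% lower, WT ILC1 were higher in Slc2a3 (0.93 ± 0.22, adjusted p = 0.00878) and lower in Pfkl (-0.81 ± 0.16, adjusted p = 0.00256) and Hk2 (-1.25 ± 0.24, adjusted p = 0.00189). ILC1 thus had the highest Slc2a3 and the lowest Pfkl and Hk2 in all 3 comparisons. The call of Slc2a3 against WT DN was lost without WT ILC1 replicate 3 (adjusted p = 0.0731) or WT DN replicate 3 (0.0596). That of Hk2 against WT CCR6 was lost with only the 2 groups in the fit (adjusted p = 0.0526). The comparisons share the WT ILC1 libraries, and with only WT ILC1 and WT DN in the fit 0 of the 10 genes were called, with 430 of 16575 over all genes against 1619 of 21286.

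Slc16a3 was lower in WT CCR6 cells than in each other WT population. Beside the difference from WT ILC1 above, it was lower than in WT NKp46 (-1.38 ± 0.26, adjusted p = 0.00125, with 6.23% of all genes called, 2.82% higher and 3.41% lower) and than in WT DN (-1.78 ± 0.26, adjusted p = 9.06e-05, with 5.84% called, 1.95% higher and 3.89% lower). Slc2a1 was lower in WT CCR6 than in WT DN (-0.64 ± 0.17, adjusted p = 0.0285). That call was lost without any one of 5 of the 6 libraries compared, at an adjusted p of 0.0616 to 0.190. Between WT DN and WT NKp46, where 2.97% of all genes were called, 0 of the 10 genes were called by edgeR.

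Other genes of the pathway were counted in 6 lists, chosen with earlier results known. From the lists of other glycolytic enzymes, regulators of phosphofructokinase, other sugar and lactate carriers, pyruvate entry, the pentose phosphate pathway, and hypoxia and Myc factors, 64 of 72 genes were tested. Of these 64, 0 were called in ILC1, where 1.06% of all genes were. In NKp46 3 were called, all higher (4.69%, against 4.16% of all genes). In CCR6 3 were called higher and 2 lower (7.81%, against 3.97% of all genes), and in DN 2 higher and 1 lower (4.69%, against 2.83%). The 5 genes that make or remove fructose 2,6-bisphosphate, the activator of phosphofructokinase, and the 12 tested genes of pyruvate entry to mitochondria had 0 calls by genotype, and at these shares over all genes lists so short could hold 0 calls without standing apart.
Of 19 other glycolytic enzyme genes 1 was called in NKp46, 2 in CCR6 and 2 in DN, all higher, while 1.99%, 1.93% and 1.49% of all genes were called higher in these populations. The CCR6 count includes Eno1b, the copy of Eno1 given above. Hk3, another hexokinase, averaged 61.3 ± 15.2 CPM in DKO NKp46 and 5.64 ± 3.74 CPM in WT NKp46 cells (3.46 ± 0.58, adjusted p = 0.000635), and 148 ± 16.6 CPM in DKO DN and 21.1 ± 4.21 CPM in WT DN cells (2.81 ± 0.55, adjusted p = 0.00368). Pkm, the pyruvate kinase that follows enolase, averaged 2037 ± 328 CPM in DKO CCR6 and 1268 ± 121 CPM in WT CCR6 cells (0.68 ± 0.17, adjusted p = 0.0190), and 2215 ± 143 CPM in DKO DN and 1328 ± 124 CPM in WT DN cells (0.74 ± 0.17, adjusted p = 0.0136).

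Of 10 tested carrier genes 2 were called. Slc16a1, the gene of the lactate and pyruvate carrier MCT1, averaged 3.49 ± 2.77 CPM in DKO NKp46 and 0.1303 ± 0.0916 CPM in WT NKp46 cells (adjusted p = 0.0137), and Emb, which encodes a partner protein of such carriers, averaged 595 ± 31.2 CPM in DKO CCR6 and 810.0 ± 33.4 CPM in WT CCR6 cells (-0.45 ± 0.10, adjusted p = 0.00945). In the pentose phosphate pathway Pgd rose by 0.49 ± 0.10 in CCR6 (adjusted p = 0.00330) and Rpia by 1.80 ± 0.45 in NKp46 (adjusted p = 0.0214). Among 11 hypoxia and Myc factors Epas1, which encodes HIF-2α, fell by 0.89 ± 0.24 in CCR6 (adjusted p = 0.0352) and Bnip3, a mitophagy gene that hypoxia raises, fell by 0.98 ± 0.25 in DN (adjusted p = 0.0342).

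Genes with patterns most like the phosphofructokinase genes were taken by Pearson's r of log2 CPM over the 24 libraries, among 9282 genes. For Pfkp they were Acat1 (r = 0.954), Fam210b (0.949) and Zmat5 (0.940). For Pfkl they were Tox (0.971), Nr1d1 (0.964) and Dlc1 (0.958), and for Pfkm Cryzl2 (0.974), Uros (0.973) and Cyp20a1 (0.967). Pfkp and Pfkl had an r of 0.911, against 0.462 for Pfkp and Pfkm. The 24 libraries share 8 groups, so these r hold the differences between groups, and the low Pfkm of WT ILC1 replicate 2 enters each r of Pfkm.

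Summed levels of markers of other cells differed by genotype in some populations. Sums of 13 T cell markers were 2846 to 3000 CPM in DKO CCR6 and 1013 to 1219 CPM in WT CCR6 libraries, with 1 marker called higher and 2 lower. The higher one was Lat, at 2151 ± 56.2 CPM in DKO CCR6 and 252 ± 40.2 CPM in WT CCR6. In NKp46 the sums were 1158 to 1428 CPM in DKO and 862 to 986 CPM in WT libraries, with 2 of the 13 higher. In DN they were 3015 to 3315 CPM in DKO and 3558 to 3860 CPM in WT libraries, with 1 higher and 8 lower.
Sums of 11 stromal and endothelial markers were 315 to 397 CPM in DKO CCR6 and 217 to 261 CPM in WT CCR6, 237 to 262 CPM in DKO NKp46 and 126 to 144 CPM in WT NKp46, and 294 to 369 CPM in DKO DN and 160.0 to 185 CPM in WT DN libraries. In each of these populations 1 of the 11 was called, Pdgfrb. Pecam1 was detected in every library, at 106 CPM or more. Col3a1, Acta2 and Pdgfrb had 0 counts in 1 library each, Col1a1, Col1a2 and Lum in 2 each, Dcn in 7, Kdr in 11, Cdh5 in 13 and Pdgfra in 14 of the 24. Of 10 ILC3 markers 4 were called lower in DKO in each of NKp46, CCR6 and DN, and their sums were 7421 to 8487 CPM in DKO CCR6 and 10490 to 12480 CPM in WT CCR6, and 4783 to 5088 CPM in DKO NKp46 and 7477 to 8059 CPM in WT NKp46 libraries. Sums of 12 epithelial markers were 18.5 to 37.3 CPM in DKO CCR6 and 5.64 to 10.1 CPM in WT CCR6, and 41.4 to 56.9 CPM in DKO DN and 19.97 to 23.5 CPM in WT DN libraries. Of 9 tested markers Krt18 alone was called, higher in both. In DKO CCR6 and DKO DN Krt18 averaged 16.5 and 29.9 CPM, Krt8 8.04 and 8.90 CPM, and Epcam 0.11 and 0.48 CPM. Vil1 was lower in DKO CCR6 (0.16 against 1.02 CPM) and Cdh1 in DKO DN (9.30 against 15.6 CPM), neither called. Sums of 8 B and plasma cell markers were 41.1 to 56.2 CPM in DKO CCR6 and 101 to 197 CPM in WT CCR6 libraries, and those of 8 ILC2 markers were 645 to 959 CPM in DKO DN and 1139 to 1563 CPM in WT DN libraries. Of the B and plasma cell markers 6 were tested, with 1 called lower in CCR6. Of these ILC2 markers 1 was called in DN, Gata3, which made up most of the sum. It averaged 688 ± 122 CPM in DKO DN and 1101 ± 152 CPM in WT DN. Genes of dissociation stress summed to 23710 to 26810 CPM in DKO NKp46 and 27490 to 31710 CPM in WT NKp46 libraries, with 3 of the 12 called lower and 1 higher. Sums of 10 ILC1 and NK markers were 399 to 512 CPM in DKO NKp46 and 305 to 361 CPM in WT NKp46, 14.1 to 18.1 CPM in DKO CCR6 and 29.5 to 44.4 CPM in WT CCR6, and 717 to 789 CPM in DKO DN and 1192 to 1735 CPM in WT DN libraries. In NKp46 1 of the 10 was called, Ccl5, at 146 ± 31.9 CPM in DKO and 34.5 ± 4.38 CPM in WT libraries. Klrb1c went the other way there, at 97.5 CPM in DKO and 129 CPM in WT libraries, and was not called. In CCR6 3 were called lower, and in DN 2. Sums of 12 myeloid markers were 333 to 382 CPM in DKO ILC1 and 462 to 1014 CPM in WT ILC1, 315 to 372 CPM in DKO NKp46 and 419 to 480 CPM in WT NKp46, and 273 to 336 CPM in DKO CCR6 and 362 to 429 CPM in WT CCR6 libraries. The 1014 CPM belonged to WT ILC1 replicate 2, the library that stood apart, and replicates 1 and 3 had 559 and 462 CPM. Of the 12 myeloid markers 0 were called in ILC1, and 1 was called lower in each of NKp46 and CCR6. The part of any of these in the results was not tested.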

How the data were processed

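The deposited table lists raw counts for each Ensembl gene and library, and all its values are whole numbers. The submitters' processing notes name the build mm10 and the tools STAR 2.7.9a, featureCounts 2.0.3 of Subread, bcl2fastq, R 4.1, DESeq2 and Salmon 1.5.2. What each did, whether counting used strand, how multiply mapped reads were treated and which annotation release was used: none of this is given in the sources used here. Libraries came from 10 ng of RNA with an integrity number above 8 and 12 to 15 PCR cycles with a SMARTer low-input kit, per the labels, with no molecular identifiers named. A title that ends in nkp4 was read as NKp46 from its description. Of rows that shared an ID only the first was kept, which left 55487 genes, and 0 columns of values were left unused. Aldoa stood under 2 IDs, and the one with more counts was used.

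Genes were filtered by group, scaled by TMM (trimmed mean of M values) and a quasi-likelihood model with 1 mean per group was fitted to all 24 libraries (edgeR 4.0.16, R 4.3.3, 16 residual degrees of freedom, common biological coefficient of variation 0.573). Standard errors are the size of a log2 fold change over the root of its F statistic. Coordinates and exon lengths are those of GENCODE mouse release 21 on GRCm38. On simulated counts with 200 changed genes, for DKO against WT in NKp46 over 20332 genes, the test recovered 52% of 2-fold and 85% of 4-fold changes, with 1.44% of calls false. Alternatives were DESeq2 size factors, no filter on low counts, DESeq2 1.42.0, limma voom (limma 3.58.1), only the 2 groups compared, a replicate block, and each library left out. Library totals as the scale were added after seeing the data.

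The genes and lists were chosen with earlier results of these data known. Named beside the 10 genes were up to 4 called genes per list and genotype comparison in order of adjusted p, the 3 genes most alike in pattern to each phosphofructokinase gene with a mean of at least 5 CPM (predicted genes left out), the copies of Eno1, and the genes that check the labels. Groups carry the same replicate numbers with no word on what a number marks, so no block entered the main model.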

Additional observations from a re-analysis of the deposited data

Results flagged for a closer look

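The size of the DKO effect differed among the 4 populations for 2 of the 10 genes, by a test of the difference itself in edgeR. For Pfkp the adjusted p was 0.00193, and the log2 effect in CCR6 minus that in NKp46 was 0.93, in ILC1 minus in CCR6 -1.21 and in ILC1 minus in DN -1.03. For Slc16a3 the adjusted p was 0.000723, and the log2 effect in ILC1 minus that in NKp46 was -1.60 and in ILC1 minus in CCR6 -2.89. With WT ILC1 replicate 2 left out, the effect on Slc16a3 was 0.65 in ILC1 and 1.78 in NKp46, and their difference was not tested again.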

How the results depend on the processing

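Of the 10 genes, the count called for DKO against WT in ILC1 was 2 with no filter on low counts, with DESeq2 and with library totals and 0 when only the 2 groups entered the fit, and leaving out 1 library gave 0 to 2. Over all genes 225 of 21286 were called there in the main fit, 333 of 41644 with no filter, 751 with DESeq2 and 236 with library totals. With only the 2 groups 11 of 16153 were called, and leaving out 1 library gave 145 to 665. In DN leaving out 1 library gave 3 to 6 of the 10 genes, and 357 to 918 over all genes, against 602 in the main fit. For WT ILC1 against WT NKp46 the count of the 10 genes was 1 with only the 2 groups, with 487 of 16021 over all genes, against 2285 of 21286. For WT CCR6 against WT NKp46 the count of the 10 genes was 3 with limma voom and 4 with only the 2 groups, and 1 to 3 with 1 library left out. Over all genes 1327 of 21286 were called in the main fit, 2076 with limma voom and 2432 of 17677 with only the 2 groups. Leaving out 1 library gave 891 to 1781 over all genes. For WT ILC1 against WT DN the count of the 10 genes was 5 with no filter and with library totals and 0 with only the 2 groups, and 2 to 5 with 1 library left out. Over all genes 1619 of 21286 were called in the main fit, 1709 of 41644 with no filter and 1739 with library totals. With only the 2 groups 430 of 16575 were called, and leaving out 1 library gave 1050 to 2050. For WT CCR6 against WT DN the count of the 10 genes was 1 with no filter and with library totals and 4 with only the 2 groups, and 1 to 5 with 1 library left out. Over all genes 1243 of 21286 were called in the main fit, 1183 of 41644 with no filter and 1206 with library totals. With only the 2 groups 2212 of 17699 were called, and leaving out 1 library gave 736 to 1803. For the difference of the DKO effect among populations the count of the 10 genes was 4 with no filter, with 623 of 41644 over all genes, against 291 of 21286. Fits of only 2 groups have fewer samples, and the count of the 10 genes fell in some of them and rose in others. The cause of these changes was not tested for any setting.

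Values near 0 changed sign without being called. In ILC1 Ldha was -0.0243 with DESeq2 size factors, -0.0245 with DESeq2, -0.0324 with limma voom and -0.0042 with only the 2 groups, Slc2a3 was 0.0076 with library totals, and with 1 library left out Ldha ran from -0.18 to 0.16, Slc2a3 from -0.33 to 0.24 and Slc16a3 from -0.0244 to 0.65. With 1 library left out Hk2 ran from -0.14 to 0.0931 in NKp46 and from -0.34 to 0.0012 in DN, Ldha in NKp46 from -0.22 to 0.0214 and Pfkm in CCR6 from -0.0845 to 0.12. A replicate block of the number changed no call by genotype, and Pfkp in CCR6 was 1.71 with it; a block of genotype and number ended the call of Slc2a1 in WT CCR6 against WT DN (adjusted p = 0.0509). Same-numbered DKO and WT libraries of a population correlated at -0.04 to 0.15 in their deviations from group means (2 of 12 over 0.1), and same-numbered populations of 1 genotype at -0.04 to 0.16 (9 of 36 over 0.1, against 0 of 72 with other numbers). Of 24 libraries 14 correlated best with their own number across genotypes and 22 across populations, a hint from the data and not from the design, and the numbers were not taken as pairs. Over all genes 225 were called by genotype in ILC1, against 751 with DESeq2 and 11 with only the 2 groups, 885 in NKp46, against 1714 with DESeq2, 846 in CCR6, against 1717 with limma voom and 1326 with DESeq2, and 602 in DN, against 1057 with DESeq2. For the difference of the effect among populations 291 were called, against 623 with no filter and 1058 with DESeq2. The calls of Pfkp and Slc16a3 in NKp46, CCR6 and DN, and of Pfkl, Slc2a3 and Eno1 in CCR6, kept their direction and stayed called under all alternatives run. Pfkm had 2 counts and Aldoc 8 in WT ILC1 replicate 2, where counting error is wide.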
